A study of Mus musculus with 10 samples.

Results

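The 10 genes of neutrophil granulocytes, S100a8, S100a9, Ngp, Lcn2, Camp, Ltf, Mmp8, Mmp9, Elane and Mpo, were followed through each of 10 arrays of dissected embryonic mouse lenses. They are 10 of the 19938 genes measured. Each gene was taken through the probe sets annotated to its symbol alone, by the highest mean over the 10 arrays; each had exactly 1 such probe set, so that step decided nothing. The genes were chosen by name with the log2 signals of these same 10 arrays in view, and the probe sets selected on their mean log2 signal, so their levels and differences below are a description.

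The lenses came from mid-gestation embryos at E13.5. Control embryos were Le-Cre-/-;DicerloxP/loxP and DicerCN embryos were Le-Cre+/-;DicerloxP/loxP, so both groups carried the loxP-flanked Dicer alleles and the groups differed in the Cre transgene. Le-Cre is driven by the P0 promoter of Pax6 in surface ectoderm, from which lens and corneal epithelium form, and the labels name no activity in blood cells; controls lacked Cre, so an effect of Cre itself and one of the Dicer deletion cannot be told apart. Each group had 5 arrays, each from the pooled lens pair of 1 embryo.

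Neutrophils are short-lived white blood cells that store antimicrobial proteins in granules made in sequence as the cell matures in blood-forming tissue. Primary granules, made first, hold myeloperoxidase and serine proteases such as elastase; secondary and tertiary granules, made later, hold lactoferrin, lipocalin 2, cathelicidin and matrix metalloproteinases, and the S100A8 and S100A9 proteins fill the cytosol. The lens itself has no blood vessels, but in the embryo it is wrapped by a transient vascular network, the tunica vasculosa lentis, in which macrophages are found.

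The arrays carried a strong lens signal. Cryaa, the alpha A crystallin, lay between 14.33 and 14.46 on the log2 scale in all 10 arrays, and Crygs, a crystallin of fibre cells, was the 1 lens marker of 14 that passed the test, lower in DicerCN. Dicer1 had log2 signals of 10.01 to 10.32 in control and 10.19 to 10.45 in DicerCN arrays (limma adjusted p = 0.472), so this probe set did not show the deletion and does not check the labels. Markers of tissue beside the lens varied by array: the mean of 12 striated muscle markers stood 2.66 above the control mean in control 4. That of 10 neural retina markers stood 0.73 above it in DicerCN 4 and 1.74 in DicerCN 5, against -0.26 to 0.30 in control arrays. The mean of 8 pigment epithelium markers stood 0.86, -0.09, 0.08, 1.42 and 0.97 from it in DicerCN 1 to 5, against -0.15 to 0.18 in control arrays. Of all genes, 1303 passed limma's test (adjusted p under 0.05, Benjamini-Hochberg over all genes), which is 6.54%.

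Of the 10 genes, 5 were high in the same DicerCN arrays, replicates 1, 3 and 5, and much lower in replicates 2 and 4. These were S100a8, S100a9, Ngp, Lcn2 and Ltf. In DicerCN 2, S100a8, S100a9 and Ngp were still above every control, and in DicerCN 4, S100a8 and Lcn2 were below every control. Camp followed the same order of arrays only in part and over a far smaller range, and Mmp8 and Mpo did not follow it. Mmp9 had the same order of DicerCN arrays as Lcn2, but ran only from 5.65 to 6.08 in them. Elane was highest of the DicerCN arrays in DicerCN 3 and lowest in DicerCN 4, but ran only from 5.59 to 6.14. None of the 10 genes passed the test, against 6.54% of all genes, and 6 had an unadjusted p under 0.05, against 18.6% of all genes. In none did the groups part without overlap, against 7.38% of all genes. The median difference, DicerCN minus control, was 0.73 on the log2 scale over the 10 genes and -0.001 over all genes. The median over the 10 was 0.49 without DicerCN 3, and 0.32 over the 7 genes kept when low-signal genes were left out. By mean over the 10 arrays, all 10 genes lay below the median level of all genes. Because lenses were measured whole, more cells of a type and more RNA per cell cannot be told apart here.

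**Figure D1:**
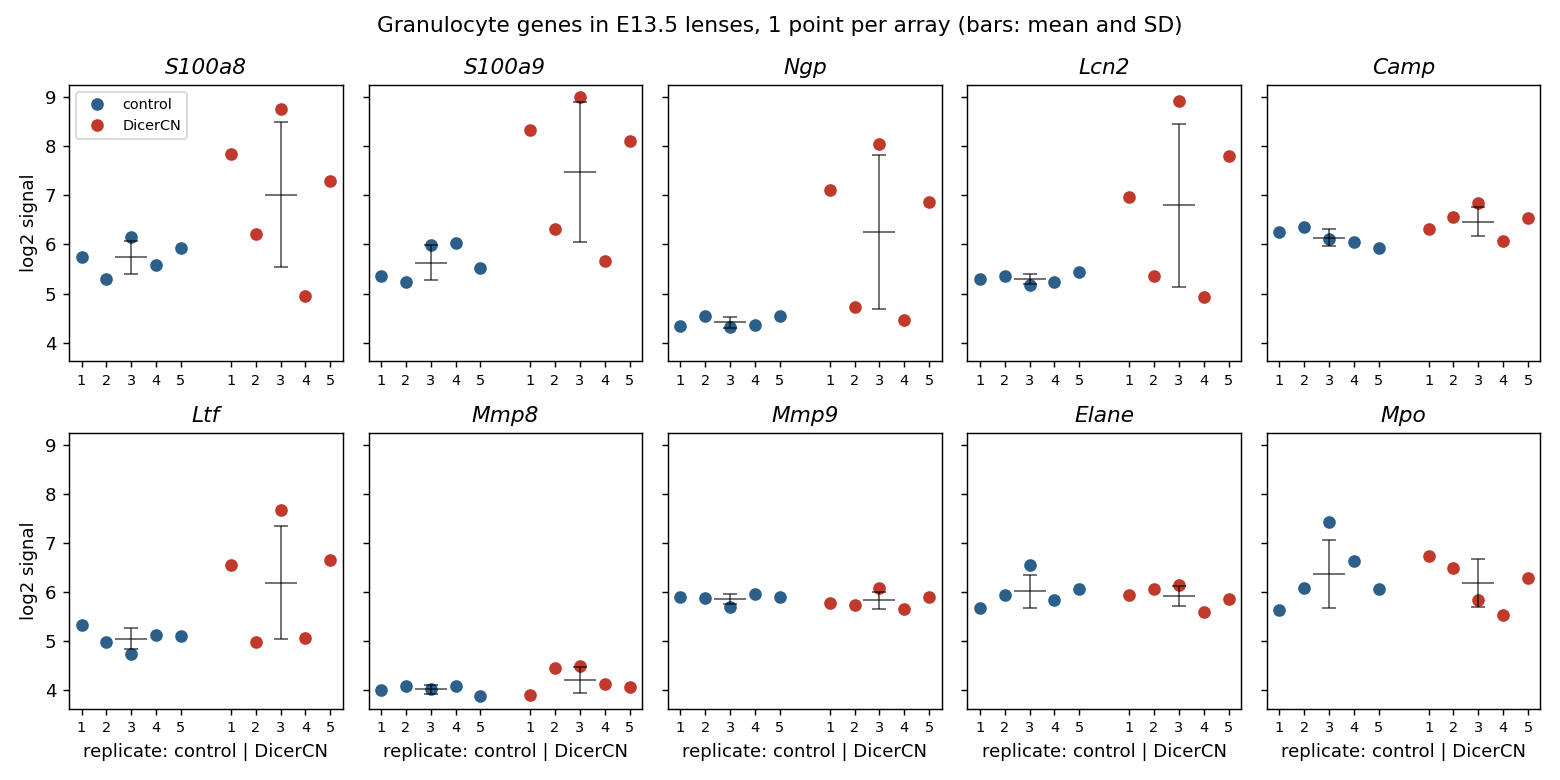
Log2 signal (y axis) of each of the 10 genes in control replicates 1 to 5 (blue) and DicerCN replicates 1 to 5 (red), 1 point per array, with the mean and SD of each group as bars. S100a8, S100a9, Ngp, Lcn2 and Ltf are highest in DicerCN 3, high in DicerCN 1 and 5, and lowest among DicerCN arrays in DicerCN 4, except Ltf, which is lowest in DicerCN 2.

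The 250 bases before the start of each of these 5 genes, and of Camp for contrast, are shown because the 5 genes were high together and Camp, a secondary granule gene like Ngp, Lcn2 and Ltf, spread over a smaller range. They are RefSeq sequences of GRCm38.p6, found for 9 of the 10 genes, and read 5′ to 3′ on the strand of the gene. Capitals mark matches on either strand to TTNNGNAA, a loose form of the site bound by C/EBP factors, which drive granule genes.
S100a8 (chr3:90668821-90669070, plus strand): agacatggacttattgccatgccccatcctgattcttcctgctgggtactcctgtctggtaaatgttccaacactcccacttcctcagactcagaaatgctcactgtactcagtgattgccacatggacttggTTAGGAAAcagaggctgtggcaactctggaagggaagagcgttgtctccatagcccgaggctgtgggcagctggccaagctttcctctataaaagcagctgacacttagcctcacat
S100a9 (chr3:90695722-90695971, minus strand): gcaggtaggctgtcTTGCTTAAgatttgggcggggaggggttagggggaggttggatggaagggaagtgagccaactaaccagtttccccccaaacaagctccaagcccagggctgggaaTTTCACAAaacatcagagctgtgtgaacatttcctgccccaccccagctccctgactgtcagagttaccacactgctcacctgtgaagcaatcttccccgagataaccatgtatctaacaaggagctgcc
Ngp (chr9:110419558-110419807, plus strand): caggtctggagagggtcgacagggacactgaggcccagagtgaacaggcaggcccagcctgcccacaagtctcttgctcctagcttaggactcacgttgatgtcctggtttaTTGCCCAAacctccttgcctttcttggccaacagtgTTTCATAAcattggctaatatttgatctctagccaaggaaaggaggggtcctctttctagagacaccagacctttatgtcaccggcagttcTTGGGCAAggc
Lcn2 (chr2:32387740-32387989, minus strand): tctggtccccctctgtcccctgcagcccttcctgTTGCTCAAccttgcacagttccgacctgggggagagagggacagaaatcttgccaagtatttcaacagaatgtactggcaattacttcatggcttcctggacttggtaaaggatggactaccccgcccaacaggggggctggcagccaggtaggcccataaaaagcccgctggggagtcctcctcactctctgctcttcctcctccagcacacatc
Ltf (chr9:111019042-111019291, plus strand): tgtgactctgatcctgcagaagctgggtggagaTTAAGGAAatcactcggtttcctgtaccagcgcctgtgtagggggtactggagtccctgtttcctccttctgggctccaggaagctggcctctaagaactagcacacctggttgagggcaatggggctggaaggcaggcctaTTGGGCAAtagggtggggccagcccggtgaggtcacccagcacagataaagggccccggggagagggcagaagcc
Camp (chr9:109849457-109849706, minus strand): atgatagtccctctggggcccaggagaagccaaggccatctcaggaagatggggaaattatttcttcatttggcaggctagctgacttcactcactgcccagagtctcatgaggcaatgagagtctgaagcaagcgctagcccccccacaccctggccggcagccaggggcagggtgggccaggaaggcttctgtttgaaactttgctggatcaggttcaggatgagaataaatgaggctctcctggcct
In all, 3 motifs were searched, all picked after the levels had been seen. TTNNGNAA lay in 6 of the 9 promoters and in 36.8% of all 32851 promoters. Ngp held 3 matches, S100a9, Ltf and Mmp8 held 2 each, S100a8 and Lcn2 held 1 each, and Camp, Elane and Mpo held none. GAGGAA, the core of sites for the myeloid factor PU.1, also lay in 6 of the 9, on either strand (S100a8, Lcn2, Ltf, Mmp8, Elane and Mpo), against 23.3% of all promoters. ATAAA on the gene's own strand, 40 to 16 bases before the start, lay in 3 (S100a8, Camp and Ltf), against 4.25%. Matches to TTNNGNAA occurred both in genes with a wide spread and in Mmp8, which had a narrow one and whose sequence is not printed. GAGGAA lay in Mmp8, Elane and Mpo, of narrower spread in DicerCN, and was absent from S100a9 and Ngp, of wide spread. A match is a string of letters in this window and not a measured binding site. S100a8 and S100a9 are neighbours on chromosome 3 with 0 protein-coding genes between them, and Camp, Ngp and Ltf lie on chromosome 9 with 8 protein-coding genes between Camp and Ngp and 20 between Ngp and Ltf.

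S100a8 and S100a9 together form calprotectin, a calcium- and metal-binding complex that makes up much of the neutrophil cytosol. S100a9 read 5.36, 5.24, 5.99, 6.02 and 5.52 in control replicates 1 to 5 and 8.32, 6.31, 8.99, 5.66 and 8.11 in DicerCN replicates 1 to 5. In this gene 4 DicerCN arrays lay above every control, and DicerCN 4 lay within the control range. The difference was 1.85 (SE 0.52, 95% interval 0.72 to 2.99), a 3.61-fold ratio of means on the log scale, with limma's adjusted p = 0.0551. Here limma took 1 spread per gene for both groups and drew it towards the smaller spread of most genes. For S100a8, S100a9, Ngp, Lcn2 and Ltf, which spread widely in DicerCN only, SEs and intervals are thus narrower than their own arrays give. The call depended on single embryos and on the filter: the adjusted p was 0.0355 without DicerCN 2, 0.00969 without DicerCN 4 and 0.0452 with low-signal genes left out. S100a8 read 5.74, 5.29, 6.15, 5.57 and 5.92 in control arrays and 7.84, 6.21, 8.76, 4.95 and 7.30 in DicerCN arrays. Its DicerCN 4 value was below all controls, DicerCN 2 was just above the highest control, and the other 3 were clearly above. The S100a8 difference was 1.28 (SE 0.54, limma adjusted p = 0.219), and 1.79 (limma adjusted p = 0.0241) without DicerCN 4. Without DicerCN 3 it was 0.84 (limma adjusted p = 0.392).

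Ngp, neutrophilic granule protein, is a cystatin-like protein of secondary granules. It read 4.33, 4.54, 4.32, 4.36 and 4.54 in control arrays and 7.11, 4.73, 8.04, 4.47 and 6.87 in DicerCN arrays. DicerCN 3 was 12.3-fold above the control mean, DicerCN 1 was 6.46-fold and DicerCN 5 was 5.47-fold, whereas DicerCN 2 and 4 were 1.24-fold and 1.04-fold. In control arrays Ngp lay at percentiles 10.7 to 13.1 of all genes, so these folds are over a low signal that need not be expression. The difference was 1.83 (SE 0.56, limma adjusted p = 0.0777), and the adjusted p was 0.0330 without DicerCN 2 and 0.0214 without DicerCN 4.

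Lcn2, lipocalin 2, withholds iron from bacteria by binding their siderophores. It read 5.30, 5.35, 5.18, 5.23 and 5.43 in control arrays and 6.96, 5.36, 8.91, 4.93 and 7.80 in DicerCN arrays. DicerCN 2 was inside the control range and DicerCN 4 below it, while DicerCN 3 was 12.2-fold above the control mean. The difference was 1.50 (SE 0.60, limma adjusted p = 0.186). It ranged from 0.97 without DicerCN 3 to 1.96 without DicerCN 4, and did not pass the test in either case (limma adjusted p = 0.319 and 0.0544). Ltf, lactoferrin, the iron-binding protein of secondary granules, read 5.32, 4.99, 4.73, 5.12 and 5.10 in control arrays and 6.55, 4.99, 7.68, 5.06 and 6.66 in DicerCN arrays. For Ltf, DicerCN 2 and 4 were inside the control range and the other 3 were above it. The Ltf difference was 1.13 (SE 0.42, limma adjusted p = 0.150).

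Camp, the cathelicidin precursor, read 6.26, 6.36, 6.10, 6.04 and 5.93 in control arrays and 6.31, 6.56, 6.85, 6.06 and 6.53 in DicerCN arrays. DicerCN 3 was again the highest, but only 1.64-fold above the control mean, and the difference was 0.32 (SE 0.14, limma adjusted p = 0.215). Mmp8, the neutrophil collagenase, was near 4 in every array, between 3.88 and 4.09 in control and between 3.91 and 4.50 in DicerCN lenses. Its difference was 0.12 without DicerCN 3. By mean signal Mmp8 lay at percentile 8.40 of all genes, where a flat reading alone does not show that expression was unchanged. Mmp9, the gelatinase of tertiary granules, ran from 5.69 to 5.96 in control and from 5.65 to 6.08 in DicerCN lenses. Their differences were 0.19 (SE 0.11, limma adjusted p = 0.411) and -0.03 (SE 0.09, limma adjusted p = 0.909).

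Over all 10 arrays, the primary granule genes did not peak in DicerCN 3. Elane, neutrophil elastase, read 5.68, 5.95, 6.56, 5.84 and 6.07 in control arrays and 5.95, 6.06, 6.14, 5.59 and 5.86 in DicerCN arrays. Mpo, myeloperoxidase, read 5.64, 6.09, 7.43, 6.64 and 6.06 in control arrays and 6.74, 6.50, 5.84, 5.53 and 6.28 in DicerCN arrays. Both were highest in control 3 and lowest in DicerCN 4, and Mpo in DicerCN 3, where the 5 genes above peaked, was below the control mean. Within the DicerCN arrays, however, Elane was highest in DicerCN 3 and lowest in DicerCN 4, as were S100a8, S100a9, Ngp and Lcn2. Prtn3, the protease beside Elane on chromosome 10, was also highest in control 3, at 6.81 against 5.66 to 6.15 in the other arrays; it is named because of this value. The differences were -0.10 (SE 0.15, limma adjusted p = 0.808) for Elane and -0.19 (SE 0.31, limma adjusted p = 0.820) for Mpo.

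**Figure D2:**
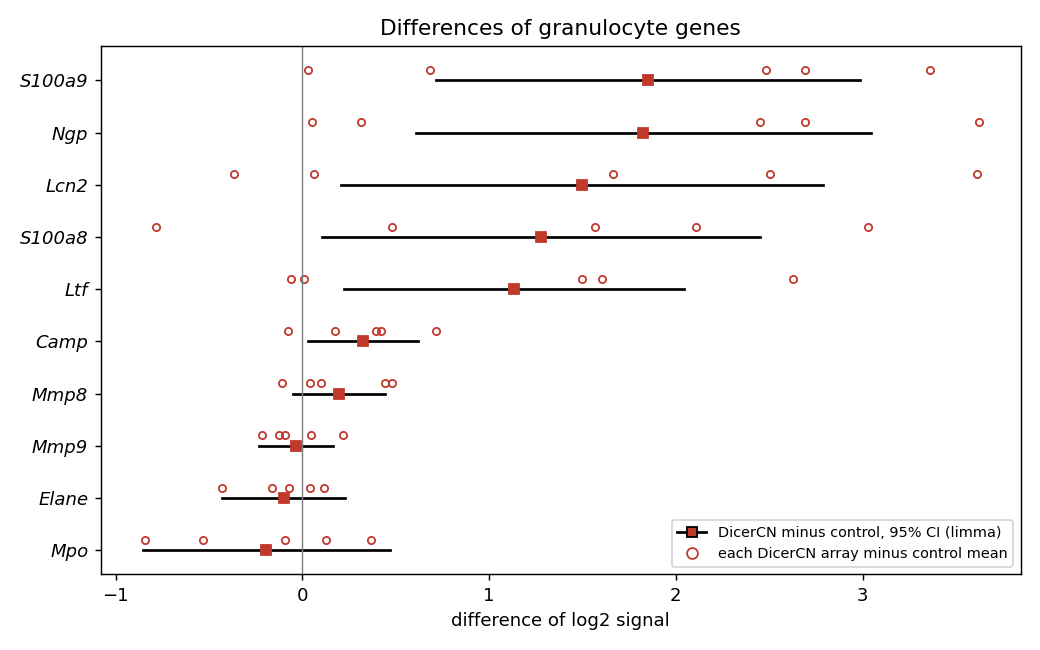
Difference of log2 signal (x axis) for each of the 10 genes: squares and lines are DicerCN minus control with limma's 95% interval, and open circles are single DicerCN arrays minus the control mean. For Ngp, 2 circles lie near 0 and 3 lie far to the right, with the mean of 1.83 between them.

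The DicerCN embryos therefore spread widely in 5 of the genes. The SD over DicerCN arrays was 1.48 for S100a8, 1.42 for S100a9, 1.57 for Ngp, 1.66 for Lcn2 and 1.15 for Ltf, against 0.33, 0.36, 0.11, 0.10 and 0.21 over control arrays. In control arrays Ngp and Ltf lay at percentiles 10.7 to 13.1 and 15.8 to 23.6 of all genes. At such low signal a small SD alone does not show steady expression. An SD of at least 1 in DicerCN, a threshold set after the values were seen, was reached by 5 of the 10 genes and by 62 of all genes, 0.311%. In rank of this SD among the 19938 genes, Lcn2 was 6, Ngp 7, S100a8 9, S100a9 12 and Ltf 33. In control arrays 0 of the 10 reached it, against 66 of all 19938 genes, so few that the 0 says nothing about the 10. The other 5 had DicerCN SDs of 0.17 (Mmp9) to 0.49 (Mpo), and Elane and Mpo varied more in control, at 0.34 and 0.69.

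**Figure D3:**
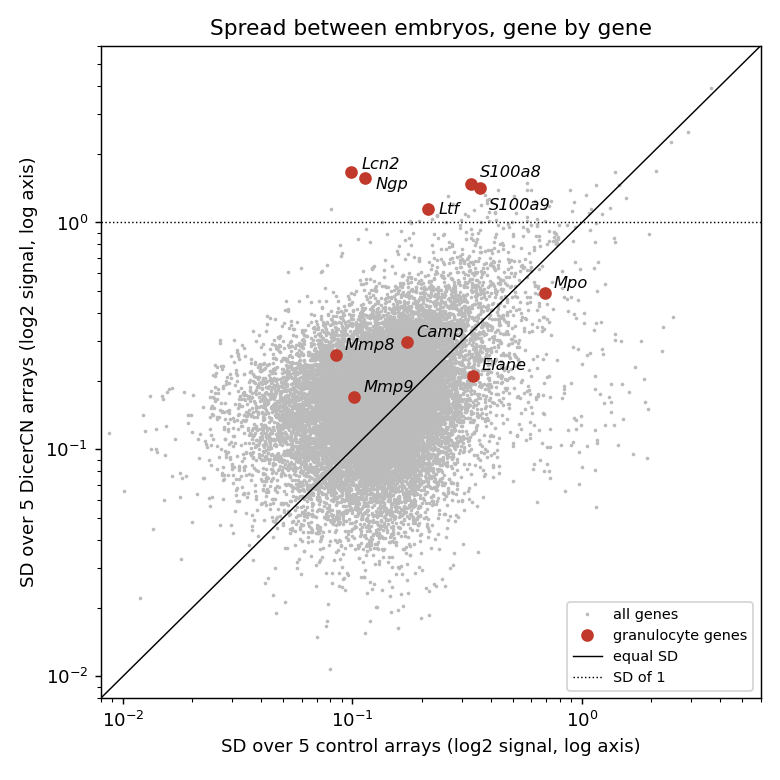
SD of log2 signal over the 5 control arrays (x, log axis) and the 5 DicerCN arrays (y, log axis), with all genes in grey and the 10 granulocyte genes in red; the solid line marks equal SDs and the dotted line an SD of 1. Lcn2, Ngp, Ltf, S100a8 and S100a9 lie above the dotted line, and Elane and Mpo lie below the solid line.

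Array by array, DicerCN 3 exceeded every control in 8 of the 10 genes, DicerCN 5 in 6, DicerCN 1 and 2 in 5 each and DicerCN 4 in 1. Over all genes the same share was 24.9% in DicerCN 3, 24.3% in DicerCN 5, 22.2% in DicerCN 1, 22.0% in DicerCN 2 and 19.9% in DicerCN 4. DicerCN 4 lay below every control in 5 of the 10 (S100a8, Lcn2, Mmp9, Elane and Mpo), and the other DicerCN arrays in 0. Over all genes this share was 24.3% in DicerCN 4, and 23.8%, 23.4%, 26.3% and 25.4% in DicerCN 1, 2, 3 and 5. By Xist and Y-linked genes, control 2 and 3 and DicerCN 1, 2 and 5 were female, so the arrays high in Ngp were of both sexes.

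Ngp had the largest SD of the 10 genes over all 10 arrays, and the 8 genes most like it were ranked by Pearson r over the 10 arrays; this is a description over arrays that share a platform and a scaling. Stfa3, a stefin of neutrophils, had r = 0.953 and read 3.70 to 4.29 in control and 5.22, 4.05, 6.24, 4.19 and 5.12 in DicerCN arrays. Stfa2 had r = 0.909, Lyz2, lysozyme of myeloid cells, 0.914, Cybb, the catalytic subunit of the phagocyte oxidase, 0.916, and Ceacam1 0.905. The remaining 3 were Olfr1357 (0.935), Olfr1051 (0.909) and 2310067E19Rik (0.912). Olfr1051 ran only from 2.54 to 2.96 over all arrays, so a high r did not mean a wide range.

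Of 20 other granule genes measured, 2 passed the test, both higher in DicerCN: Cybb by 0.89 (SE 0.23, limma adjusted p = 0.0391) and Itgam, the integrin CD11b of neutrophils and macrophages, by 0.45 (SE 0.12, limma adjusted p = 0.0425). The median difference of the 20 was 0.15. Leaving out 1 array ended the call of Cybb for 7 of the 10 arrays (control 1, 2, 3 and 5 and DicerCN 1, 3 and 5; adjusted p up to 0.101) and that of Itgam for 8 (all controls and DicerCN 1, 3 and 4; up to 0.108). Lyz2 read 7.94, 5.59, 8.15, 6.45 and 6.84 in DicerCN arrays against 5.37 to 6.10 in control, so DicerCN 4, low in Ngp, was above the controls (difference 1.29, limma adjusted p = 0.0797).

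Of 10 surface receptors of neutrophils measured, none passed limma's test and 2 had an unadjusted p under 0.05. Their mean stood 0.09, 0.12, 0.26, 0.07 and -0.03 from the control mean in DicerCN 1 to 5, so that 4 of the 5 arrays were above the control range of -0.04 to 0.03 by small amounts. Ccr1, a chemokine receptor of neutrophils and monocytes and the receptor with the smallest p, read 4.35 to 4.98 in control and 4.76 to 5.23 in DicerCN lenses (difference 0.41, limma adjusted p = 0.0968; 0.0340 without control 3). Csf3r, the receptor for the neutrophil growth factor G-CSF, ran from 5.05 to 5.23 in control and from 5.21 to 5.77 in DicerCN lenses, and Cxcr2, the chemokine receptor that guides neutrophils, from 3.65 to 3.84 and from 3.72 to 4.27. Both were highest in DicerCN 3. Ly6g, the usual surface marker of mouse neutrophils, named after its values were seen, ran from 4.02 to 4.46 in control and from 4.06 to 4.41 in DicerCN lenses. By mean signal, Csf3r, Cxcr2 and Ly6g lay at percentiles 22.5, 5.93 and 9.43 of all genes. At such low signal a flat reading alone does not show that expression was unchanged. None of 9 transcription factors of the lineage passed limma's test, 2 having an unadjusted p under 0.05. Among them Spi1, which encodes PU.1, read 6.53, 6.07, 7.76, 6.52 and 6.38 in DicerCN arrays against 5.93 to 6.10 in control (difference 0.65, limma adjusted p = 0.144), and Cebpe, a factor of late granule genes, lay between 6.26 and 6.47 in all arrays.

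**Figure D4:**
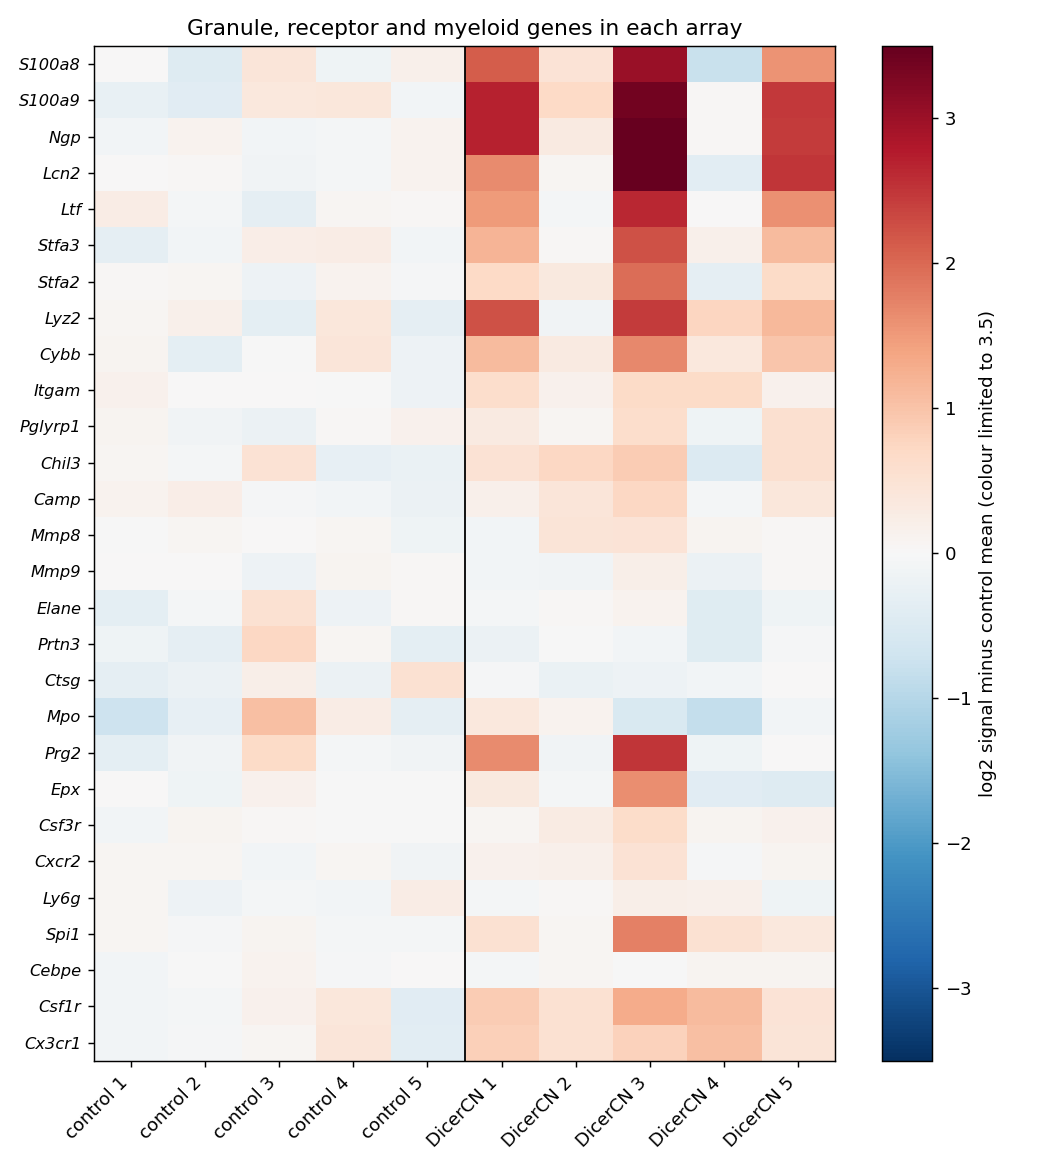
Log2 signal minus the control mean (colour, limited to 3.5) of granule, receptor and myeloid genes (rows) in each of the 10 arrays (columns). The upper 5 rows are dark in DicerCN 1, 3 and 5, whereas Csf3r, Cxcr2 and Ly6g stay pale in these arrays and Csf1r and Cx3cr1 are raised in all 5 DicerCN arrays. By mean signal, Csf3r, Cxcr2 and Ly6g lie at percentiles 22.5, 5.93 and 9.43 of all genes.

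Ligands that draw neutrophils and vessel adhesion genes showed no call among 15 measured in limma's test, with 2 at an unadjusted p under 0.05. Cxcl1, a chemokine for Cxcr2, ran from 6.22 to 6.56 in control and from 6.26 to 6.38 in DicerCN lenses, and Cxcl5 differed by 0.23 (SE 0.11, limma adjusted p = 0.276). Of 8 receptors for the secreted proteins none passed limma's test, 3 having an unadjusted p under 0.05. Slc22a17, a receptor for lipocalin 2, was 0.29 lower on the log2 scale without overlap of the groups (limma adjusted p = 0.0627), Tlr4, which binds S100A8 with S100A9, was 0.42 higher (limma adjusted p = 0.0835), and Lrp1, which takes up lactoferrin, was 0.19 higher (limma adjusted p = 0.167). Of 15 inhibitors and activators of the granule enzymes, Reck alone passed; this membrane-bound inhibitor of metalloproteinases including MMP9 rose by 0.36 (SE 0.08, limma adjusted p = 0.0189; 0.0582 without control 1).

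Markers of other cells moved with the 5 genes in part. Of 20 macrophage markers, 4 passed, all higher in DicerCN (Csf1r, Cx3cr1, Mpeg1 and Stab1), and the median difference of the 20 was 0.49. Csf1r, the receptor that macrophages need, rose by 0.86 (limma adjusted p = 0.0111) and was above every control in all 5 DicerCN arrays, DicerCN 2 and 4 included. The call of Stab1 (limma adjusted p = 0.0448) was lost without control 1, 2, 3 or 5 or DicerCN 1, 3 or 4, with adjusted p up to 0.116. The mean of the 20 macrophage markers stood 0.79, 0.11, 0.80, 0.55 and 0.18 above the control mean in DicerCN 1 to 5, whereas that of the 10 granulocyte genes stood 1.09, 0.24, 1.73, -0.25 and 1.08 from it. Lyz2 counts both among the 20 macrophage markers and among the other granule genes. It stood 2.24 and 2.44 above its control mean in DicerCN 1 and 3. Control arrays ran from -0.27 to 0.35 for the macrophage markers, so DicerCN 2 and 5 lay inside the control range. By these means DicerCN 4 was above the control range in macrophage markers and not in the granulocyte genes, and DicerCN 5 the reverse. For DicerCN 5 this rests on 1 control array, as control 4 stood at 0.35 and the other controls between -0.27 and 0.05. On the linear scale the summed macrophage signal ran from 1988 to 3012 in control and from 2659 to 4411 in DicerCN lenses, and that of the 10 granulocyte genes from 447 to 620 and from 396 to 2226.

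Pan-leukocyte genes stood 0.59, 0.02, 0.78, 0.50 and 0.11 above the control mean in DicerCN 1 to 5, with 2 of 10 passing, both higher (Cd53 and Rac2); their summed signal ran from 858 to 1183 in control and from 1044 to 2059 in DicerCN. The Cd53 call (limma adjusted p = 0.0480) was lost without control 1, 2, 3 or 5 or DicerCN 1, 3 or 4 (up to 0.116), and the Rac2 call (0.0356) without control 1, 2, 3 or 5 or DicerCN 1 or 4 (up to 0.0945). Endothelial markers, with none of 10 passing limma's test and 1 at an unadjusted p under 0.05, stood 0.60, -0.19, 0.76, 0.38 and -0.41 from it, with summed signals of 3053 to 4534 and 2825 to 6461. Erythroid markers, with none of 12 passing and 3 at an unadjusted p under 0.05, stood 0.38, 0.07, 0.24, 0.09 and 0.53 above it, with summed signals of 6655 to 12322 and 8790 to 13921. Control arrays ran from -0.22 to 0.19 for pan-leukocyte genes, from -0.26 to 0.26 for endothelial and from -0.38 to 0.30 for erythroid markers. Inside these ranges lay DicerCN 2 and 5 for pan-leukocyte, DicerCN 2 for endothelial, and DicerCN 2, 3 and 4 for erythroid genes. Eosinophil, basophil and mast cell markers, with none of 16 passing and 0 at an unadjusted p under 0.05, were raised mainly in DicerCN 3, at 0.46. There Prg2, the major basic protein of eosinophils, read 7.62 and Epx, eosinophil peroxidase, named after its values were seen, 6.82. Prg2 was also 6.77 in DicerCN 1 and 5.12 in DicerCN 5. The rise in DicerCN 3 was not shared by every gene of the list. Siglecf, Il5ra and Ccr3 stood there at 0.02, 0.04 and 0.15 from the control mean. Fcer1a and Cma1 stood at -0.17 and -0.12. These genes were named for contrast after their values were seen. Pigment epithelium markers, with none of 8 passing limma's test and 5 at an unadjusted p under 0.05, had a median difference of 0.63; they were high in DicerCN 1 and 5, as were the 5 granulocyte genes, but highest in DicerCN 4 and at the control level in DicerCN 3, and their summed signal ran from 672 to 833 in control and from 612 to 2314 in DicerCN lenses. The part of these cells, and of blood and vessels carried along in dissection, in the granulocyte signal was not tested.

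**Figure D5:**
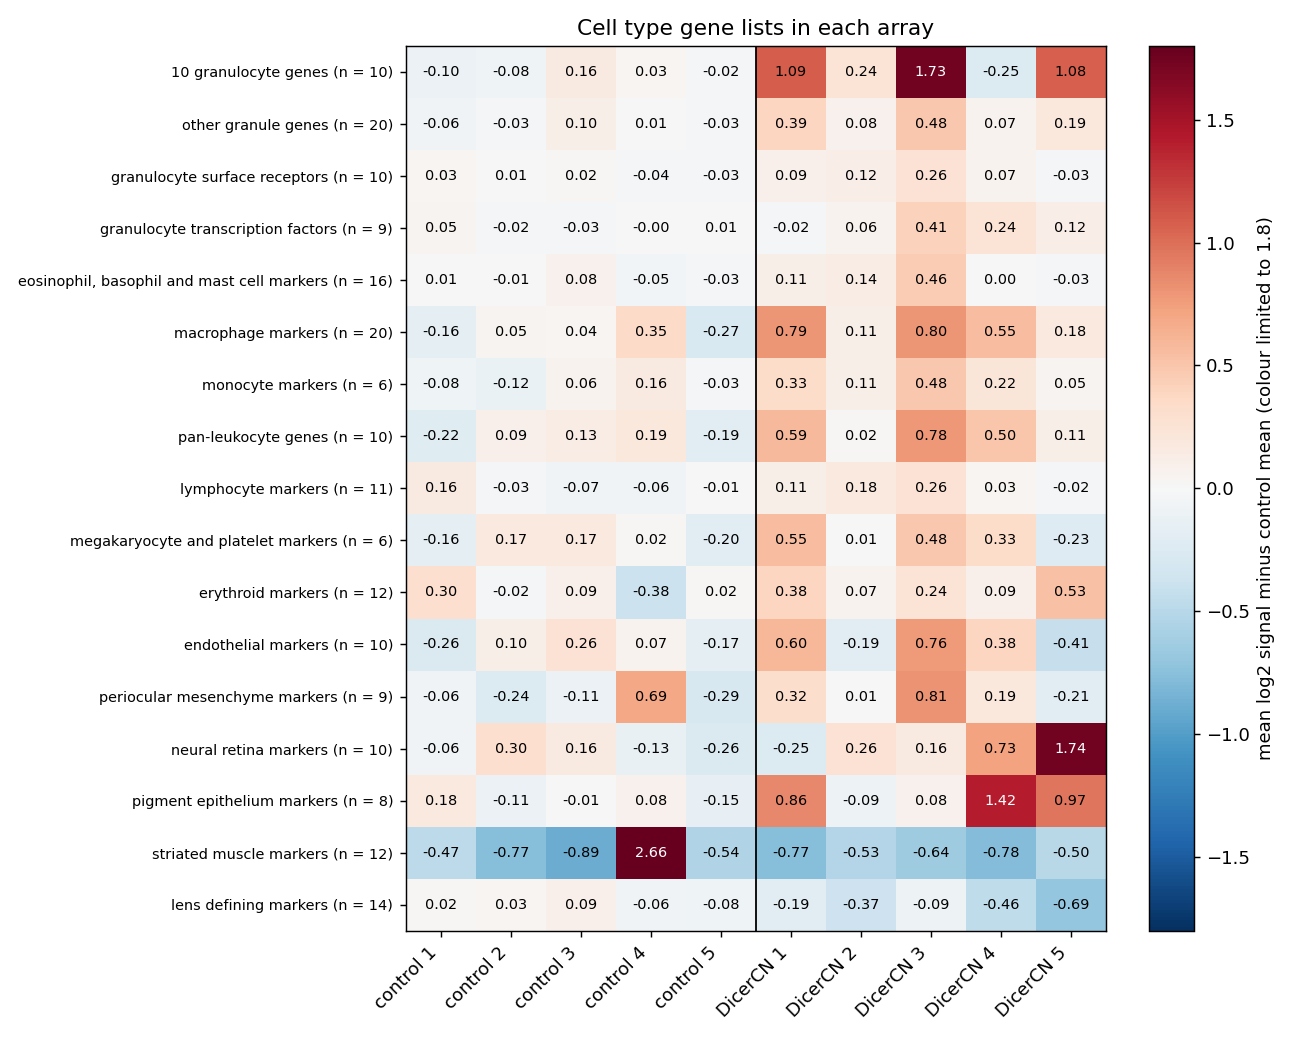
Mean log2 signal minus the control mean (colour and printed value) of each gene list (rows, with the number of genes measured) in each of the 10 arrays (columns). The 10 granulocyte genes are raised in DicerCN 1, 3 and 5, macrophage markers most in DicerCN 1, 3 and 4, and neural retina markers most in DicerCN 5.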

How the data were processed

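Total RNA (100 ng) of each lens pair was labelled by a whole-transcript assay and hybridised to 1 Affymetrix array per embryo, per the labels' protocols. Scanner software (GCOS) is the one tool listed in the submitters' processing notes. The deposited values were taken as log2 signals from their range (1.91 to 15.2); the log base, summarisation and normalization by the authors are not given in the sources used here. Array medians of 6.54 to 6.56 show scaling before deposit. Arrays give no molecule counts, so the number of arrays limits precision.

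Of 35557 probe sets, 21789 had 1 symbol in the platform annotation, 1621 several and 12147 none; only the first kind was used. Per gene the probe set of highest mean was kept, leaving 19938 genes. limma 3.58.1 (R 4.3.3; lmFit, eBayes, 2-sided, Benjamini-Hochberg over all genes, adjusted p under 0.05) compared DicerCN with control, and was tested on simulated data. A list's score is its mean log2 signal minus the control mean. Summed signals add 2 to the power of each value.

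Genes named are the 10 granulocyte genes and the 8 most correlated with Ngp. In each other list they are some of up to 4 of smallest p and up to 3 of highest mean. Others are marked, except Ctsg, named for a turned sign, and Chil3, named for a flag by Dixon's criterion. The genes and lists were chosen with earlier results of these data known. Of 262 other genes in 21 lists, 235 were measured. The alternatives were quantile normalization, mean of probe sets, a filter at the 30th percentile of mean signal, trended robust eBayes, array weights, a replicate block, and leaving out arrays.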

Additional observations from a re-analysis of the deposited data

Results flagged for a closer look

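Within a group of 5 arrays, 11 of 142 sets of values had 1 array set apart from the others by Dixon's criterion (gap over range above 0.71); chance gives about 1 in 20. None was one of the 10 granulocyte genes. In control 4, Runx1 stood apart at 6.48 and Mpeg1 at 7.00, as did the mean difference from the control mean of striated muscle markers at 2.66, of periocular mesenchyme markers at 0.69 and of recruitment and adhesion genes at 0.12. In control 3, Prg2 stood apart at 5.78, and in control 1 the lymphocyte markers at 0.16. In DicerCN 3, Spi1 was set apart at 7.76 and Timp3, a metalloproteinase inhibitor, at 11.20. On the low side, Ctsc, which activates elastase and its relatives, read 6.88 in DicerCN 2, and Chil3 read 4.28 in DicerCN 4.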

How the results depend on the processing

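Of 167 values of the 10 genes under 17 alternatives, 157 kept direction and side of the threshold, 7 came to pass it and 3 turned sign. The count of the 10 that passed, 0 with all arrays, was 1 with the low-signal filter, 1 with the replicate block, and 0 to 3 when single arrays were left out; it was 0 with control 4 and DicerCN 5 left out together. The filter removed Ngp, Ltf and Mmp8. Signs turned when single arrays were left out, over ranges of -0.19 to 0.03 for Elane, -0.38 to 0.07 for Mpo, -0.24 to 0.03 for Prtn3 (each without control 3), -0.10 to 0.01 for Mmp9 (without DicerCN 4), -0.18 to 0.03 for Ctsg (without control 5), -0.14 to 0.37 for Epx (without DicerCN 3), -0.0008 to 0.11 for Ly6g (without control 2) and -0.06 to 0.02 for Cxcl1 (without control 4). Cxcl1 was also 0.02 with control 4 and DicerCN 5 left out. The cause was not tested. All genes passing numbered 784 to 1295 when single arrays were left out. In the other lists the genes passing higher numbered 4 to 17, and those lower 1 to 3, when single arrays were left out; the count higher was 19 with array weights, 18 with the replicate block and 21 with control 4 and DicerCN 5 left out. The replicate numbers did not pair the samples: same-numbered arrays correlated at 0.027, -0.088, 0.067, 0.19 and -0.021, and 1 of 5 correlated best with its own number. With this replicate block S100a9 had a limma adjusted p of 0.0471.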
